A study of Mus musculus with 6 samples.

Results

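Skeletal muscle fibre genes encode the contractile filaments, the calcium handling proteins and the fuel enzymes of voluntary muscle, and they were followed here in inguinal white adipose tissue, a fat depot under the skin of the groin. The set held 38 genes, chosen by gene symbol, of the 57180 genes in the deposited table, and each symbol matched 1 row. They were set apart as 14 fast-fibre genes, 7 slow-fibre genes and 17 genes that serve both kinds of fibre or are not confined to one. RNA sequencing covered 6 libraries of wild-type male mice, all with the same batch label. The libraries HFD1, HFD2 and HFD3 came from mice fed a high-fat diet, and HEP1, HEP2 and HEP3 from mice fed a high-fat diet with 0.5% hesperidin, a flavonoid glycoside of citrus fruit, with feeding over 12 weeks. Values were TPM, a measure of transcript abundance that is scaled for transcript length and to a fixed total in each library, so that levels of different genes can be set side by side. TPM keeps no read depth, so the depth was unknown and a value of 0 is given as listed at 0. The labels did not say whether each library came from a separate animal, so a p-value covers the spread among these libraries, which may be technical.

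A muscle fibre contracts when myosin heavy chains, each carrying light chains, pull on actin filaments. Troponin on the actin filament gates this pull by binding calcium, which the sarcoplasmic reticulum releases and takes back. Mouse fibres differ in which gene of each family they use. Slow fibres use Myh7 with Myl2, Myl3 and the slow troponins, and are rich in myoglobin. Fast fibres use Myh2, Myh1 or Myh4 with Mylpf, Myl1 and the fast troponins, and the Myh4 type is the most glycolytic. Voluntary muscle fibres are not among the usual cell types of white fat.

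The libraries themselves differed in content. The 10 adipocyte markers were abundant in each, with sums of 31470.1 to 55092 TPM. The 8 B cell genes summed to 544 to 1183 TPM in HFD3, HEP1 and HEP3 and to 6.02 to 6.89 TPM in HFD1, HFD2 and HEP2, and the 8 T cell genes split the libraries in the same way. The 12 liver genes summed highest in HEP2, at 8725 TPM, and next in HFD1, at 6064 TPM, and HFD2, at 5321 TPM. Hp and Trf made up most of each sum. Both were higher in HFD2, at 3004 and 2003 TPM, than in HFD1, at 1987 and 1803 TPM. Alb, the serum albumin gene, stood at 664 TPM in HFD1, at 1024 TPM in HEP2 and at 9.20 to 48.8 TPM in the other 4.

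Muscle fibre transcripts were present at very unequal levels, and the order of the libraries did not follow the diets. The 38 genes summed to 361, 1115 and 229 TPM in HFD1, HFD2 and HFD3 and to 2534, 21209 and 183 TPM in HEP1, HEP2 and HEP3. In HEP2 they made up 2.12% of all transcripts, against 0.253% in HEP1, 0.112% in HFD2 and 0.0183% to 0.0361% in HFD1, HFD3 and HEP3. The hesperidin group thus held the highest, the next highest and the lowest library, and the groups overlapped. The mean ± SD was 568 ± 478 TPM in HFD and 7975 ± 11521 TPM in HEP (n = 3 each). HEP2 was the highest library for 30 of the 38 genes, which included 13 of the 14 fast genes, 16 of the 17 shared genes and 1 of the 7 slow genes. HEP3 was the lowest for 19 of the 38. In a bulk sample, fewer muscle cells and less RNA per muscle cell cannot be told apart. HEP2 was also the library with the most transcripts of the liver list, while HFD1, which came next for that list, was low in muscle transcripts; the part of either signal in the other was not tested. The heat map of all members shows the bright HEP2 column beside the dark block of slow genes.

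**Figure D1:**
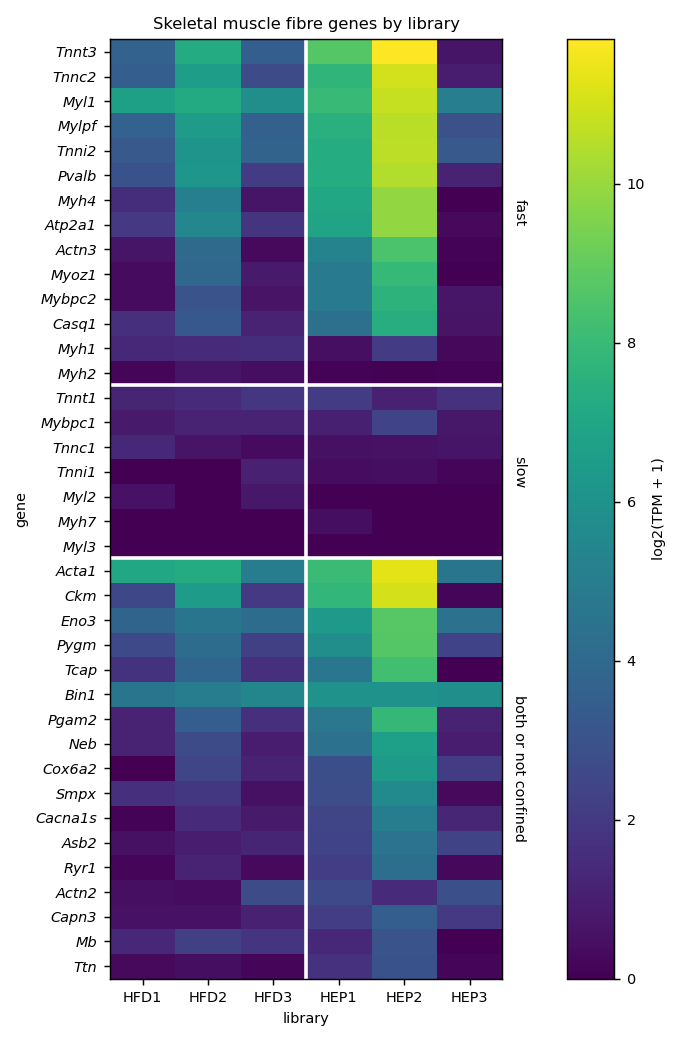
Level of each of the 38 genes, as log2(TPM + 1) on the colour scale, with genes in rows grouped as fast, slow and shared and the 6 libraries in columns. HEP2 is the brightest column for 30 of 38 genes, while no slow gene reached 10 TPM in any library.

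Fast genes carried this signal and slow genes did not. The 14 fast genes summed to 165, 751 and 109 TPM in the HFD libraries and to 1728.5, 14780.5 and 52.6 TPM in HEP1, HEP2 and HEP3. Over the same libraries the 7 slow genes summed to 4.23, 3.43 and 5.99 TPM and to 5.28, 6.17 and 3.67 TPM. The fast sum thus spanned a wide range while the slow sum stayed between 3.43 and 6.17 TPM. As a share of fast plus slow TPM, slow genes made up 2.5%, 0.455% and 5.23% in HFD1 to HFD3 and 0.305%, 0.0417% and 6.52% in HEP1 to HEP3. The share was lowest in the 3 libraries with the most muscle transcripts, HEP2, HEP1 and HFD2, and highest in those with the fewest. The 17 shared genes followed the fast ones, at 192, 361 and 115 TPM in HFD and at 801, 6422 and 127 TPM in HEP.

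**Figure D2:**
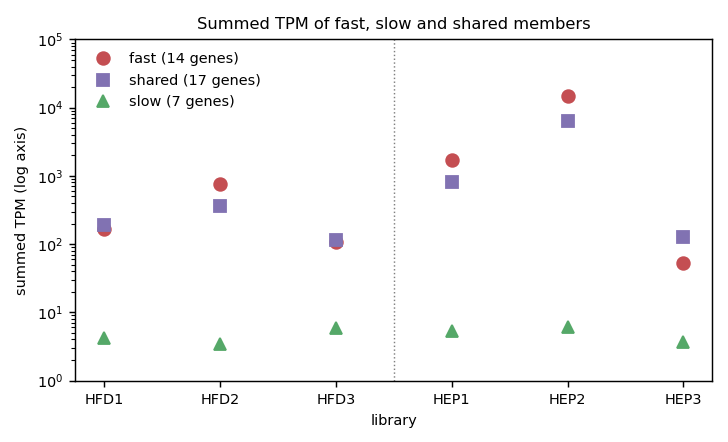
Summed TPM of the 14 fast, 17 shared and 7 slow genes in each library, on a log axis. Circles and squares climb together from HFD2 to HEP1 and HEP2, whereas the slow triangles lie between 3.43 and 6.17 TPM in all 6 libraries.

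Myosin heavy chains, the motors that set the speed of a fibre, were almost entirely Myh4, the heavy chain of the fastest glycolytic fibres, wherever muscle transcripts were abundant. Myh4 (ENSMUSG00000057003) was listed at 1.94, 33.7 and 0.59 TPM in HFD1, HFD2 and HFD3 and at 135, 953 and 0 TPM in HEP1, HEP2 and HEP3. It made up 99.7% of the summed TPM of the 4 heavy chain genes in HEP2, 99.4% in HEP1 and 93.8% in HFD2. Myh1, the heavy chain of the intermediate fast type, stood at 1.5, 1.64 and 1.91 TPM in HFD and at 0.42, 3.29 and 0.19 TPM in HEP. Myh2, the heavy chain of fast oxidative fibres, did not exceed 0.57 TPM in any library and was lowest in HEP2, at 0.04 TPM. Myh7, the slow heavy chain, was listed at 0 in HFD1, HFD2 and HEP2 and reached 0.34 TPM in HEP1. In HFD1, HFD3 and HEP3 the 4 genes summed to 3.59, 2.88 and 0.31 TPM, too little for their shares to describe a fibre type. Myh1, Myh2 and Myh4 are related copies of 1 gene family, and their levels depend on how the authors' estimate assigned any reads they share, which was not tested.

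These 3 fast heavy chain genes are neighbours on mouse chromosome 11, and their promoters are shown because their levels lay so far apart. Each run below is the 250 bases before the annotated start in RefSeq on build GRCm38.p6, 5′ to 3′ on the strand of the gene, at chr11:67237562-67237811 (+ strand) for Myh4, chr11:67199852-67200101 (+ strand) for Myh1 and chr11:67170777-67171026 (+ strand) for Myh2. Capitals mark matches on either strand to the E-box CANNTG, bound by MyoD family factors, to the MEF2 motif, to the CArG box of serum response factor, to the MCAT motif CATTCC of TEAD factors and to TATAAA.
Myh4: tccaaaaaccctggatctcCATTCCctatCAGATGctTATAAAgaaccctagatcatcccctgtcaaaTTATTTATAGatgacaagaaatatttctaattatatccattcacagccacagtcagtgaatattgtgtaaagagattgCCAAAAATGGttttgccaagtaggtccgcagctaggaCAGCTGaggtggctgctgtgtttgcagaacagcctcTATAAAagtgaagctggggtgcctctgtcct
Myh1: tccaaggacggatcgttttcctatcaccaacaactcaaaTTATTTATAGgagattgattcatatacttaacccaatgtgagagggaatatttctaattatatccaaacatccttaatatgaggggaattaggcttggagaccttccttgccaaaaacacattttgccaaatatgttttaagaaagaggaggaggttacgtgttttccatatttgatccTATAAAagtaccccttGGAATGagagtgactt
Myh2: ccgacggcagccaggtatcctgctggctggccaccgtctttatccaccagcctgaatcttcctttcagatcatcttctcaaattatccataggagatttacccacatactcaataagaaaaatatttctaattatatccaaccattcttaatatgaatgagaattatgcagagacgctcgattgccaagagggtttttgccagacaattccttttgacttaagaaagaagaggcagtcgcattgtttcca
The promoter of Myh4 held a match to each of the 5 motifs. Its MEF2 match, TTATTTATAG, lay at bases -182 to -173 before the start, with a TATAAA match on the other strand inside it, and its CArG match, CCAAAAATGG, at -104 to -95. The promoter of Myh1 held the same MEF2 letters at -211 to -202 and neither an E-box nor a CArG match, and that of Myh2 held none of the 5. The windows were not aligned, so what each lacks depends on where its annotated start lies. Letters near the end of the Myh2 window recur in Myh1 ahead of its TATAAA match at -32 to -27 and its MCAT match at -16 to -11.

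Of the 38 members, 30 had an entry in the promoter table; Actn3, Bin1, Cox6a2, Myoz1, Neb, Tcap, Tnni2 and Tnnt3 had none. A MEF2 match was found in 6 of the 30, in 3 of 10 fast, 3 of 13 shared and 0 of 7 slow promoters, where 3.01% of the 27025 promoters of all genes held one. The CArG box was found in 4 of 30, against 1.40% of all promoters, and the MCAT motif in 10 of 30, against 12.6%. The E-box was found in 25 of 30, against 66.0% of all promoters, and TATAAA in 5 of 30, against 13.0%. A match describes the letters in this window only.

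Among the light chains, which stiffen and regulate the myosin neck, the fast forms were detected everywhere and the slow forms hardly at all. Mylpf, the fast regulatory light chain, stood at 12.3, 88.9 and 11.4 TPM in HFD and at 178, 1552 and 6.72 TPM in HEP. Myl1, the fast essential light chain, stood at 105, 146 and 56.9 TPM in HFD and at 251, 1740.4 and 32.6 TPM in HEP, a much flatter pattern. Myl2, the slow regulatory chain, was listed at 0 in HFD2 and in all 3 HEP libraries and at 0.51 and 0.69 TPM in HFD1 and HFD3. Myl3, the slow essential chain, was listed at 0 in all 6 libraries.

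Myosin-binding protein C, which braces the thick filament, gave the same contrast on a smaller scale. Mybpc2, its fast form, was listed at 0.28 to 0.66 TPM in HFD1, HFD3 and HEP3, at 7.11 TPM in HFD2, at 28.2 TPM in HEP1 and at 199 TPM in HEP2. Mybpc1, its slow form, lay between 0.70 and 1.25 TPM in 5 libraries and at 4.19 TPM in HEP2. Mybpc1 was the slow gene with the clearest excess in HEP2, although it too remained at 2.06% of the 2 forms there.

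The troponins, the calcium switch of the thin filament, separated fast from slow sharply. Tnnt3 (ENSMUSG00000061723), the fast troponin T that ties the complex to tropomyosin, stood at 12.25, 155 and 10.7 TPM in HFD and at 409.5, 3600.8 and 0.57 TPM in HEP, and it was the most abundant of all 38 genes in HEP2. Its slow counterpart Tnnt1 lay between 1.13 and 3.11 TPM in all 6 libraries and was lowest in HEP2. The slow form thus made up 0.0314% of troponin T transcripts in HEP2 and 79.5% in HEP3, where Tnnt3 stood at 0.57 and Tnnt1 at 2.21 TPM. Tnni2, the fast inhibitory subunit, stood at 8.81, 67.8 and 12.6 TPM in HFD and at 157, 1574 and 8.92 TPM in HEP, and its slow counterpart Tnni1 did not exceed 1.10 TPM. Tnnc2, the fast calcium sensor, stood at 10.4, 94.6 and 5.67 TPM in HFD and at 210.5, 2057 and 0.86 TPM in HEP. Tnnc1, the slow and cardiac calcium sensor, lay between 0.28 and 1.61 TPM and overlaps Nisch on the opposite strand, which stood at 60.7 to 132 TPM, and the labels do not say whether strand was kept, so reads of the pair cannot be told apart.

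**Figure D3:**
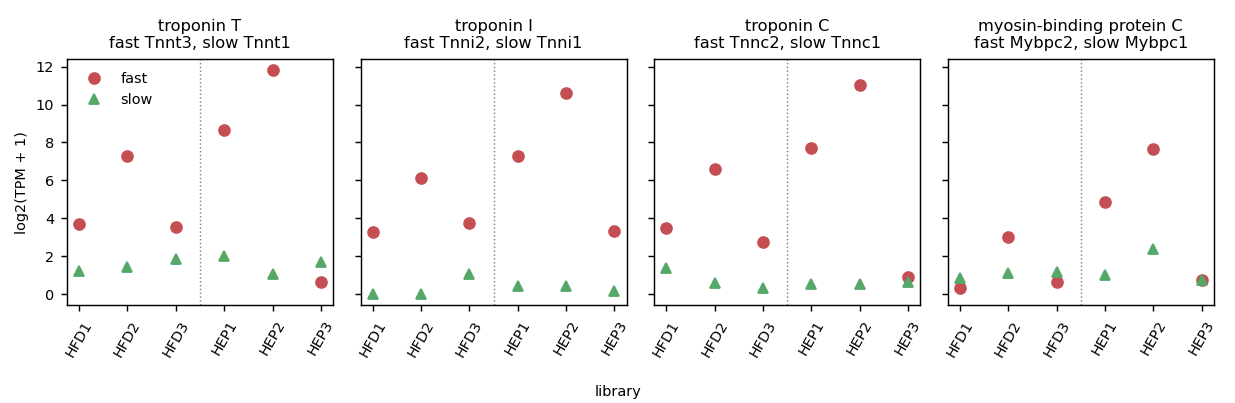
Fast and slow forms of troponin T, I and C and of myosin-binding protein C, as log2(TPM + 1) in each library. The fast form lies far above the slow form in HFD2, HEP1 and HEP2, while no slow form exceeds 4.19 TPM, the value of Mybpc1 in HEP2.

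The promoters of the fast and the slow troponin C genes are shown as a pair of forms of 1 protein that differed in level, and that of Acta1, the skeletal actin, as the most abundant shared gene. They are the 250 bases before the RefSeq start on GRCm38.p6, 5′ to 3′ on the strand of the gene with the same capitals, at chr2:164779735-164779984 (- strand), chr14:31208062-31208311 (+ strand) and chr8:123894776-123895025 (- strand).
Tnnc2: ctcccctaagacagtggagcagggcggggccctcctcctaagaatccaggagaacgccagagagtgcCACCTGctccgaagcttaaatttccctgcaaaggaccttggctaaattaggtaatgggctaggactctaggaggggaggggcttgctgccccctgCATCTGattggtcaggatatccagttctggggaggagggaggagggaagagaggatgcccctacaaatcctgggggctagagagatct
Tnnc1: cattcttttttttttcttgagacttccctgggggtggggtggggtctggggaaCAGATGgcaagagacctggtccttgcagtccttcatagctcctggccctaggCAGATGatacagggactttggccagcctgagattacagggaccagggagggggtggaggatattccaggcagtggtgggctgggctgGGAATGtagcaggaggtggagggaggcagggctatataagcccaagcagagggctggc
Acta1: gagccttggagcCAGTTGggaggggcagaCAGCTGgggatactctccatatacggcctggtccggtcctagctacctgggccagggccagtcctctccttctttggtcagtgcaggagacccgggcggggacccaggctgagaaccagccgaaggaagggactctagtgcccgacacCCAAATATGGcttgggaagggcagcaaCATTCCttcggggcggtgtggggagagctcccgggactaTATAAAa
Both troponin C promoters held 2 E-box matches, and that of Tnnc1 also an MCAT match on the opposite strand. The Acta1 promoter held a CArG match, CCAAATATGG, at -73 to -64, an MCAT match at -46 to -41 and a TATAAA match at -7 to -2.

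Acta1 (ENSMUSG00000031972) did not keep to the proportions of the fast genes. It stood at 135, 153 and 30.7 TPM in HFD and at 268, 2562 and 23.2 TPM in HEP, so that HFD1 was close to HFD2 for this gene and not for most others. Acta1 and Myl1 together made up 66.5% of all member transcripts in HFD1 and 38.2% in HFD3, against 20.3% in HEP2, 20.5% in HEP1 and 26.8% in HFD2. Without these 2 genes, the members summed to 121, 816 and 142 TPM in HFD and to 2015, 16906 and 127 TPM in HEP. HFD1 was then the lowest library, just below HEP3. That order depended on Bin1, which is also made outside muscle and stood at 22.8 TPM in HFD1 and 57.96 TPM in HEP3. Neb, the giant ruler protein of the thin filament, stood at 0.93 to 5.64 TPM in HFD and at 20.1, 102 and 0.93 TPM in HEP.

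Genes that anchor the filaments at the Z-disc and along the sarcomere were highest in HEP2, then HEP1 and then HFD2, except Actn2. This order held for the fast-fibre forms and for the shared genes Tcap, Ttn and Smpx. Actn3, the alpha-actinin of fast glycolytic fibres, was listed at 0.58, 16.2 and 0.25 TPM in HFD and at 38.3, 353 and 0.09 TPM in HEP. Actn2, the alpha-actinin of all fibres, went another way, at 0.40, 0.33 and 5.45 TPM in HFD and at 5.04, 1.65 and 6.48 TPM in HEP. Its 3 highest libraries, HEP3, HFD3 and HEP1, were the 3 rich in B and T cell genes and not those rich in fast fibre genes. The part of those cells in Actn2 was not tested. Myoz1, the calcineurin-binding Z-disc protein of fast fibres, reached 14.5 TPM in HFD2, 27.8 TPM in HEP1 and 241 TPM in HEP2 and did not exceed 0.78 TPM elsewhere. Tcap, which caps titin, reached 13.2, 24.2 and 297 TPM in the same 3 libraries and was listed at 0 in HEP3. Ttn, the titin spring, stood at 2.20 and 6.79 TPM in HEP1 and HEP2 and at 0.14 to 0.36 TPM in the other 4. Smpx, a small costamere protein, stood at 0.44 to 2.83 TPM in HFD and at 5.92, 47.8 and 0.25 TPM in HEP.

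Calcium handling followed the fast pattern. Pvalb, the calcium buffer that speeds relaxation in fast fibres, stood at 6.95, 72.5 and 3.24 TPM in HFD and at 156, 1388 and 1.16 TPM in HEP. Atp2a1, the fast-fibre calcium pump of the sarcoplasmic reticulum, stood at 2.85, 43.1 and 2.38 TPM in HFD and at 116.5, 953 and 0.22 TPM in HEP. Casq1, a calcium store protein counted here among the fast genes, stood at 2.12, 8.55 and 1.27 TPM in HFD. In HEP it stood at 19.2, 165 and 0.56 TPM. The channels themselves were lower per length: Ryr1, the release channel, stood at 18.3 TPM and Cacna1s, the voltage sensor, at 31.4 TPM in HEP2, and neither exceeded 4.49 TPM elsewhere. Bin1, which bends the T-tubule membrane and is also made outside muscle, was the flattest of the members with a mean above 10 TPM, at 22.8, 31.25 and 42.04 TPM in HFD and at 65.67, 65.69 and 57.96 TPM in HEP. HEP3, the library with the lowest sum over the members, had almost as much Bin1 as HEP2. Bin1 made up 31.7% of all member TPM in HEP3.

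In HFD2, HEP1 and HEP2 the enzymes of phosphocreatine, glycogen breakdown and glycolysis lay above myoglobin. Elsewhere they were lower, and Pgam2, at 1.27 TPM in HFD1 and 2.00 TPM in HFD3, lay below myoglobin in both. Ckm, the muscle creatine kinase, stood at 4.99, 90.8 and 2.93 TPM in HFD and at 226, 2100.3 and 0.17 TPM in HEP. Pygm, the muscle glycogen phosphorylase, stood at 5.13, 17.2 and 3.66 TPM in HFD and at 55.9, 413 and 4.12 TPM in HEP. Eno3 and Pgam2, the muscle enolase and phosphoglycerate mutase, reached 421 and 229.9 TPM in HEP2, against 79.2 and 24.7 TPM in HEP1. In the other 4 libraries Eno3 lay between 12.9 and 23.3 TPM and Pgam2 between 1.24 and 10.7 TPM. Mb, which stores oxygen in oxidative fibres, stood at 1.60, 3.72 and 2.57 TPM in HFD and at 1.56, 7.10 and 0 TPM in HEP. In HEP2 Mb lay above the fast genes Myh1 and Myh2, at 3.29 and 0.04 TPM, and below the other 12, which all reached 100 TPM there. Mb overlaps Apol6 on the opposite strand, which stood at 186 to 401 TPM, so reads of the pair cannot be told apart without known strand. Cox6a2, the striated-muscle subunit of cytochrome oxidase, was listed at 0, 4.61 and 1.22 TPM in HFD and at 6.15, 84.5 and 3.22 TPM in HEP, and overlaps Itgad on the opposite strand, which stood at 4.19 to 33.8 TPM, with the same limit.

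The mixture of fast genes was nearly the same in the libraries that held much of it. Of the 14 fast genes, 12 reached 1 TPM in both HEP1 and HEP2, and their ratio of HEP2 to HEP1 ran from 6.94 for Myl1 to 10.02 for Tnni2 with a median of 8.69. All 12 lay within 1.5 times of that median. Between HEP2 and HFD2 the median over 13 fast genes was 21.7, and 11 lay within 1.5 times of it. The 2 outside were Myl1 and Myh1, and Myh1 had the lowest ratio, 2.01. For HEP2 to HEP1 the 17 shared genes had a median ratio of 5.32 and a range from 0.327 for Actn2 to 13.7 for Cox6a2, and 7 of the 17 lay within 1.5 times of their median. For HEP2 to HFD2 their median was 18.1 and 11 of 13 lay within 1.5 times of it, the same count as for the fast genes. For HEP1 to HFD2 the medians were 2.28 over 12 fast and 2.31 over 13 shared genes, with 10 of each within 1.5 times. Of the slow genes, Tnnt1 had a HEP2 to HEP1 ratio of 0.363 and Mybpc1 one of 4.03. These ratios compare single libraries and carry no replicate error.

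**Figure D4:**
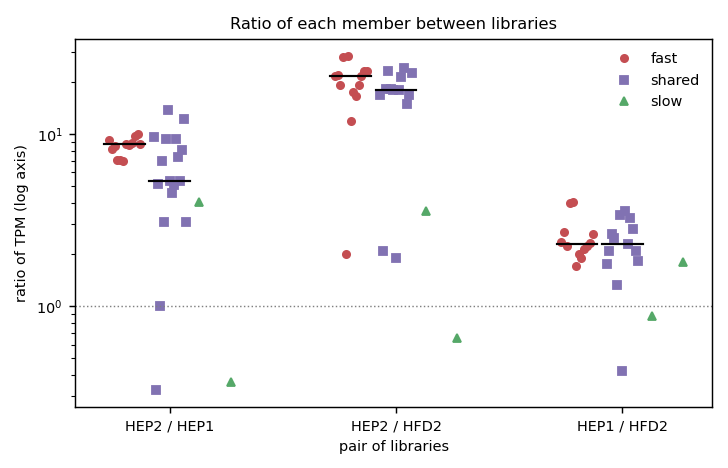
Ratio of TPM between 2 libraries for each member with at least 1 TPM in both, on a log axis, with a bar at the median of the fast and of the shared genes. The fast genes cluster around 8.69 for HEP2 over HEP1 and around 21.7 for HEP2 over HFD2, with Myh1 apart at 2.01.

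The design asks whether hesperidin changed these genes on a high-fat diet, and no member passed the test. The test took genes whose mean over the 6 libraries reached 1 TPM, which left 32 of the 38 members; Myh2, Tnnc1, Tnni1, Myl2, Myh7 and Myl3 fell below. A member could pass this filter through HEP2 alone, so counts over the 32 describe them and support nothing. In limma on log2(TPM + 1) with adjustment over all 15446 genes tested, 0 of 32 members were called in either direction at an adjusted p under 0.05, and 0% of all genes were called, while 1.81% of all genes were at an unadjusted p under 0.05. The HEP mean was the higher one for 30 of 32 members and for 9057 of all 15446 genes tested. The median log2 fold change was 2.21 over the members, against 0.07 over all genes tested. The median was 2.52 over 13 fast, 1.90 over 17 shared and 0.22 over 2 slow genes. Without the filter, it was 2.09 over the 37 members above 0 TPM in at least 1 library. The standard error of a fast gene such as Myh4 was large: its log2 fold change was 3.22 ± 2.59 (SE, n = 3 per group) with a 95% interval from -3.04 to 9.47 and an adjusted p of 0.879 in limma. For Ckm the change was 2.67 ± 2.80 and for Tnnt3 2.19 ± 2.82, both with an adjusted p of 0.879 in the same fit. For Tnnt1, the most abundant slow gene, it was 0.10 ± 0.35 with an interval from -0.75 to 0.95 and an adjusted p of 0.95.

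Single libraries decided the size of these differences. Without HEP2 the median over the tested members was 0.67, and over the fast genes 0.53. The log2 fold changes of Tnnt3, Acta1, Myl1 and Tcap then lay at -0.19, -0.11, -0.071 and -0.066. Without HEP3 the median was 3.62 over the members and 4.93 over the fast genes. Leaving out any of the 6 libraries in turn called 0 members, and the smallest adjusted p of a member was 0.193 in limma, reached without HEP2.

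**Figure D5:**
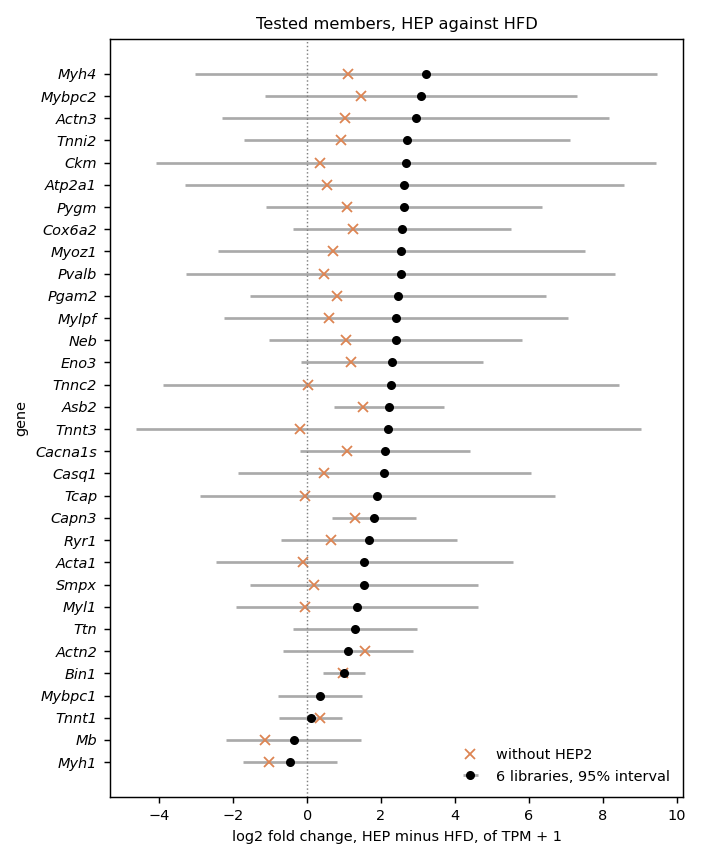
Log2 fold change of TPM + 1, HEP minus HFD, of the 32 tested members, with 95% intervals from limma (points) and the value without HEP2 (crosses, missing for 2 genes that then fell below the filter). The intervals of 29 members span 0, and most crosses lie nearer to 0 than the points.

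Asb2, Capn3 and Bin1 were the 3 members whose HEP values all lay above the HFD values, which is 9.38% of the 32 against 1.88% of all genes tested. The reverse, all HEP values below all HFD values, held for 0 of the 32 members and for 3.58% of all genes tested. Asb2, Capn3 and Bin1 were also the 3 members at an unadjusted p under 0.05, against 0.68% of all genes higher in HEP at that level. Asb2, an adaptor of a ubiquitin ligase in muscle and in blood cells, stood at 0.45, 0.89 and 1.30 TPM in HFD and at 4.25, 21.9 and 4.28 TPM in HEP. Its log2 fold change was 2.22 ± 0.62 (SE, n = 3 per group), with an adjusted p of 0.879 in limma. Capn3, the muscle calpain, stood at 0.49, 0.49 and 1.11 TPM in HFD and at 3.41, 10.5 and 2.88 TPM in HEP, a change of 1.80 ± 0.47. It overlaps Ganc on the same strand, which stood at 14.1 to 24.9 TPM, so reads from the shared stretch cannot be told apart. The difference in Bin1 was 1.00 ± 0.23, and its adjusted p in limma was again 0.879. The 3 genes were nearly as high in HEP3 as in HEP1, although HEP3 held the fewest fibre transcripts, and HEP1 and HEP3 were the libraries with the most B cell transcripts, at 1101 and 1183 TPM. In HFD3, where the B cell genes summed to 544 TPM, Asb2, Capn3 and Bin1 were each the highest of the HFD libraries. Over the 6 libraries the correlation with the mean of the B cell list was 0.04 for Asb2, 0.12 for Capn3 and 0.55 for Bin1, and that with the mean of the 32 tested members was 0.77, 0.74 and 0.51, as a description. The part of lymphoid cells in these values was not tested.

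Other genes of skeletal muscle, from lists outside the 38, were mostly highest in HEP2 as well, and none was called. A gene of these lists could also pass the filter through HEP2 alone. The counts of genes highest in HEP2 therefore describe the lists and support nothing, and they were not set against the share of all genes highest there. Of 26 other contractile and Z-disc genes, 22 were tested, 0 passed in either direction and 20 were highest in HEP2. Tpm1, an alpha-tropomyosin that smooth muscle and other cells also make, stood at 85.7, 178 and 87.4 TPM in HFD and at 289, 2093 and 82.6 TPM in HEP. Tpm2, the beta form, reached 365 TPM in HEP2 and lay between 29.2 and 63.4 TPM elsewhere. Tpm3, whose muscle product belongs to slow fibres and which other cells make as well, was lowest in HEP2, at 125 TPM. Ldb3, a Z-disc protein, reached 93.4 TPM in HEP2 and did not exceed 9.87 TPM elsewhere. Of 21 other excitation and calcium genes, 16 were tested, 0 passed and 13 were highest in HEP2. Among them Trdn, Hrc and Stac3, which sit with the calcium release channel or in its store, reached 57.0, 56.1 and 54.4 TPM in HEP2. Atp2a2, the calcium pump of slow fibres and of most other cells, lay between 37.2 and 52.2 TPM without a peak in HEP2. Of 16 other energy genes in the table, all were tested, 0 passed and 15 were highest in HEP2. Aldoa, the muscle aldolase, reached 2666 TPM in HEP2 against 542 to 998 TPM elsewhere. Gpd1, an enzyme that fat cells also hold in plenty, was not highest in HEP2.

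Heart muscle genes did not follow the fast fibre genes over the libraries, and most smooth muscle genes did not either. Of 11 heart muscle genes, 2 were tested and 0 passed, and the list summed to 26.4 to 45.3 TPM over the 6 libraries, with 33.5 TPM in HEP2. The 2 tested were Myl4, at 17.8 to 41.0 TPM, and Tnni3, at 1.15 to 7.54 TPM. Myl4 made up most of the sum in each library, so the sum mainly describes that gene. Myh6, the alpha heavy chain of the heart, did not exceed 0.01 TPM, and Nppb was listed at 0 in all libraries. The 9 smooth muscle genes summed to 346 to 556 TPM in HFD and to 373, 715 and 319.7 TPM in HEP, and 2 of the 9 were highest in HEP2. Those 2 were Acta2, the smooth muscle actin, at 413 TPM against 153 to 363 TPM elsewhere, and Des, desmin, which skeletal muscle also holds, at 154 TPM against 13.6 to 31.6 TPM. Myh11, the smooth muscle heavy chain, was lowest in HEP2, at 9.36 TPM. The Schwann cell and nerve list summed to 605 TPM in HFD2 and to 413 TPM in HEP2, with 134 TPM in HEP3, where 5 of its 6 genes were lowest. The 7 skin genes summed to 3.59 to 6.26 TPM, with Krt15 listed at 0 throughout. None of these marker lists had a called gene.

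The genes most like the members were looked for among named tested genes outside the set whose highest TPM was at least 4 times the sum of 1 and their lowest TPM, by the Pearson correlation of log2(TPM + 1) with the mean of the 32 tested members over the 6 libraries. The 10 nearest had correlations between 0.988 and 0.997. All 10 were highest in HEP2, as was the mean by which they were chosen, so their peak there follows from the choice. Sh3bgr came first with a correlation of 0.997, at 67.9 TPM in HEP2 and 0.33 TPM in HEP3. Eef1a2, the elongation factor that mature muscle and nerve cells use, followed at 0.996, with 91.0 and 0.22 TPM in the same libraries. Mylk4, Xirp2, Mylk2, Hrc, Tmod4 and Trdn stood on the other muscle lists already, and Apobec2 and Rpl3l, a muscle form of a ribosomal protein, did not. Among the members themselves, 7 of the 32 had a correlation under 0.8 with this mean: Tnnt1, Actn2, Myh1, Bin1, Capn3, Mb and Asb2. Tnnt1 and Actn2 were the 2 with a negative value, at -0.32 and -0.18, and their correlations with the mean of the B cell list were 0.89 and 0.94, over the same 6 libraries and as a description.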

How the data were processed

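Gene expression was read from the deposited table of TPM values, made by the authors per gene and library with their mean TPM per group. The tools listed in the submitters' processing notes are DESeq2, StringTie, RSEM, HISAT2 and fastp, with no version or order; build and annotation: not given in the sources used here. Per the labels, libraries were made from total RNA with a TruSeq kit, and strand is not stated. Column totals ran from 999999.71 to 1000000.7, depth was unknown, and between 22599 and 25271 genes per library were above 0 TPM.

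Libraries were grouped by title. Of 57180 genes, the 15446 whose mean reached 1 TPM were tested in limma 3.58.1 (R 4.3.3) on log2(TPM + 1), with a trend in the variance prior, two-sided, and Benjamini-Hochberg adjustment over all of them with a threshold of 0.05. Fold changes refer to TPM plus the pseudocount 1, so those of low genes are understated. The fit was tested on simulated data. Sums and shares over members got no test. All 38 members are named; of other lists, up to 4 genes with the highest mean TPM, markers listed at 0 and the 10 most alike genes are named, and Myh6, Myh11, Ucp1, Cox7a1, Myod1, Myog, Pax7, Myh3 and Myh8 were chosen after their values were seen. The members and lists were chosen with earlier results of these data known. Overlapping genes were looked up in GENCODE M21 (GRCm38), which held all 38 IDs, and promoters in RefSeq GRCm38.p6, matched by symbol. Where a gene had several starts the first in the table was used, and a match to a motif was counted once per position. Alternatives were another pseudocount, other filters and scalings, robust empirical Bayes, a block for the replicate number and leaving out each library.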

Additional observations from a re-analysis of the deposited data

How the results depend on the processing

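With pseudocount 0.1, no filter or a minimum mean of 5 TPM, scaling by median of ratios, rescaling without muscle genes and robust empirical Bayes, 0 members were called, and every member of the 32 kept its direction (24 of them were tested under the minimum of 5 TPM). Leaving out 1 library gave 0 to 1 called genes in all, with 1 without HEP replicate 2, and 0 called members. The log2 fold changes that turned sign when a library was left out ran from -0.11 to 3.25 for Acta1, from -1.14 to 0.37 for Mb, from -0.071 to 2.78 for Myl1, from -0.066 to 4.05 for Tcap, from -0.12 to 0.35 for Tnnt1 and from -0.19 to 5.39 for Tnnt3, with the lowest value without HEP replicate 2 for all of these but Tnnt1, which was lowest without HEP replicate 1. The cause was not tested.

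The slow share moved by more than the spread between libraries where few muscle transcripts were present. From troponins alone it was 8.47% in HFD1, 12.2% in HFD3 and 22.1% in HEP3, from light chains alone 1.00% in HFD3 and 0% in HEP3, and from heavy chains alone 0% in HFD1 and 0.694% in HFD3. With the replicate number as a block, 0 genes and 0 members were called, and the median over the members was 2.21. Under the block the unadjusted p in limma moved both ways, from 0.258 to 0.069 for Myh4 and from 0.0047 to 0.0117 for Bin1. The correlations of same-numbered deviations were -0.35, 0.37 and 0.65. HFD1 correlated best with HEP2, at 0.48, while HFD2 and HFD3 correlated best with the HEP library of the same number. With 3 libraries per group, these values cannot decide whether the numbers pair the libraries. TPM hold no depth, so the precision of values under 1 TPM is unknown.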

Other observations

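Regulators of muscle formation and breakdown and genes of immature fibres ranged widely in level. Of 13 such genes 5 reached a mean of 1 TPM and were tested in limma, and 0 passed. All 5 had the higher mean in HEP, as had 9057 of all 15446 genes tested. Myf6 and Mstn reached the filter only through HEP2, so this count supports nothing. Myf6, the myogenic factor of mature fibres, stood at 18.7 TPM in HEP2 and did not exceed 1.06 TPM elsewhere. Myod1 reached 1.46 TPM in HEP2, Myog 0.24 TPM and Pax7, the satellite cell factor, 0.17 TPM. Myh3 and Myh8, the embryonic and neonatal heavy chains, did not exceed 0.03 and 0.07 TPM in any library, where Myh4 reached 953 TPM. Trim63 and Fbxo32, ubiquitin ligases of muscle protein breakdown, reached 72.9 and 27.2 TPM in HEP2, against at most 5.69 and 8.78 TPM in the other libraries. Mef2c, which B cells also make, was highest in HEP3, HEP1 and HFD3, at 59.9, 50.6 and 30.6 TPM.

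Cox7a1 and Cox8b are counted among both muscle and brown fat genes. They were highest in HEP2, at 91.9 and 230.01 TPM, while Ucp1, the brown fat uncoupler, stood at 0.17 TPM there and at 1.73 TPM at most, in HFD2. HFD1 had the next highest Cox8b, at 184.5 TPM, with 1.94 TPM of Myh4.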
